A study of Sus scrofa with 48 samples.

Results

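The enzymes that make fatty acids from acetyl-CoA and then lengthen and desaturate them were described in the backfat layer (subcutaneous adipose tissue, SCAT) of pigs. They were 10 genes among 10392 symbols with a measured probe: ACLY, ACSS2, ACACA, ACACB, FASN, ELOVL6, ELOVL5, SCD, FADS1 and FADS2. The genes were listed by symbol, with earlier results of these data known. The array carried 40 probes for them, and a probe was kept where it was well above background on 9 or more of the 12 arrays of at least 1 group. This kept 36 of the 40 probes, with at least 1 for each of the 10 genes. The 4 probes left out were ACACB A_72_P413058 and A_72_P488413, well above background on 1 and 5 of 48 arrays, FADS1 O3556 on 22 arrays and FADS2 A_72_P244657 on 19 arrays. Probes for ACLY carry the older gene name ACL in the array files.

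The 48 pigs were Large White animals 132 days old, and each was measured on 1 array. They came from lines that selection had driven apart in residual feed intake (RFI), the part of feed intake that growth and body composition do not predict, so that low RFI pigs are the efficient ones. Within each line, pigs had free access either to feed rich in fat and fiber (HF) or to feed low in both and rich in starch (LF). Each of the 4 combinations of diet and line thus held 12 pigs, and a group is named by both, such as HF low RFI. The lines are selected populations and not single mutations, and intake was not held equal between diets. The labels name separate pigs by number only, so that the p-values measure the spread between these samples.

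De novo lipogenesis turns surplus carbohydrate into fat, and in the pig adipose tissue rather than liver is its main site. Citrate leaving the mitochondrion is split by ATP citrate lyase (ACLY), acetate is activated by ACSS2, acetyl-CoA is carboxylated to malonyl-CoA by ACACA or by its mitochondrial form ACACB, and fatty acid synthase (FASN) joins these units into palmitate. ELOVL6 lengthens palmitate, SCD places the first double bond, and ELOVL5, FADS1 and FADS2 act mainly on polyunsaturated chains.

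Each probe is a 60-base sequence on the array, and probes of 1 gene read separate stretches of its transcript unless they overlap. The 36 kept probes held 35 distinct sequences. Some of the probes on which the diet values rest, or that repeat each other, follow with their sequences. The sequences are printed 5′ to 3′ as the array files give them, with the start of the probe in its target sequence where the files place it.
ACLY A_72_P710913, from base 736: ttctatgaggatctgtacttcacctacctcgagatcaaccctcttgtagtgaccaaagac
ACSS2 A_72_P226742, from base 614: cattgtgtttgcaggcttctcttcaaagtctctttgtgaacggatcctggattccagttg
ACSS2 A_72_P560374, from base 1732: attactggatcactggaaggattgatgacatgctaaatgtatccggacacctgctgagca
ACACA A_72_P305844, from base 6661: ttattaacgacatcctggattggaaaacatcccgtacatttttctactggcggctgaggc
FASN A_72_P647699, from base 7111: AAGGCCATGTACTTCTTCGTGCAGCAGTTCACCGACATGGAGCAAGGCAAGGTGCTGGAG
FASN A_72_P338038: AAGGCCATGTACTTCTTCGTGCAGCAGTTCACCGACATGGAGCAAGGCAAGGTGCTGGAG
SCD A_72_P558694, from base 395: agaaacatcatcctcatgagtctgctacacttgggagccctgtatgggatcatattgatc

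Capitals mark the sequence that FASN probes share. A_72_P647699 and A_72_P338038 are the same 60 bases under separate names, and over the 48 arrays their values correlated with r = 0.9994 after group means were subtracted. O15017 is the reverse complement of A_72_P175196 except at 2 of 60 bases, with an exact run of 35 bases, and these correlated with r = 0.97. Which strand each of them reads could not be checked, and both are counted as FASN probes below. The 5 FASN probes thus cover 3 places of the transcript. Among the SCD probes, A_72_P564094 shared 45 bases with O15027 and 27 with A_72_P578058, and these last 2 shared 29 with each other. A_72_P586756 shared 21 bases with A_72_P600413. The longest stretch shared between members was 16 bases, in a FADS1 and a FADS2 probe.

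The arrays differed in how much of the array they detected. Between 62.2% and 81.9% of the probes were well above background on an array, and 4 of the 5 arrays under 70% were HF. No spot was saturated, and each of the 6 slides held 2 arrays of each group. The position on the slide was not balanced between diets, since position 1 held 5 HF and 1 LF array and position 8 held 1 HF and 5 LF arrays. The adipocyte markers ADIPOQ, FABP4, PLIN1 and LIPE lay at the 99.5, 99.9, 98.3 and 99.2 percentiles of probe brightness, so that the defining markers of the labelled tissue were present. Values below are log2 levels relative to the median kept probe of the array, which is 0. A change is HF minus LF on that log2 scale, averaged over both lines. A probe was called by the study's cut-offs, that is where the limma p was under 0.01, the change exceeded 1.1-fold and the p adjusted over all 44356 kept probes (Benjamini-Hochberg) was under 0.08. In bulk tissue, fewer cells of a type and less RNA per cell cannot be told apart.

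The question of the diet comparison was whether feed rich in fat and fiber, in place of starch, went with a lower expression of these enzymes. Fat, fiber, starch and intake cannot be told apart in this comparison. Transcripts of ACLY, ACSS2 and ACACA were called lower under the HF diet at 10 of their 11 probes, by 1.30-fold to 1.72-fold. FASN and ELOVL5 were called lower at part of their probes. In all, 13 of the 36 kept probes (36.1%) were called, all of them lower, whereas 13.1% of all kept probes were called in either direction and 7.44% were called lower. The change was below 0 at 35 of the 36 probes, with a median of -0.35 against -0.02 over all kept probes. Before adjustment 28 of the 36 probes had a p under 0.05, against 25.5% of all kept probes. At the brightest kept probe of each gene, the lead probe, 3 of 10 genes were called, namely ACLY, ACSS2 and ACACA, where 12.7% of all symbols were called, 9.45% lower and 3.23% higher. With array position as a block 0 lead probes were called, and over 16 alternatives the call was lost under 2 for ACLY, 2 for ACACA and 5 for ACSS2. The ranges of HF and LF arrays overlapped at every member probe.

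**Figure D1:**
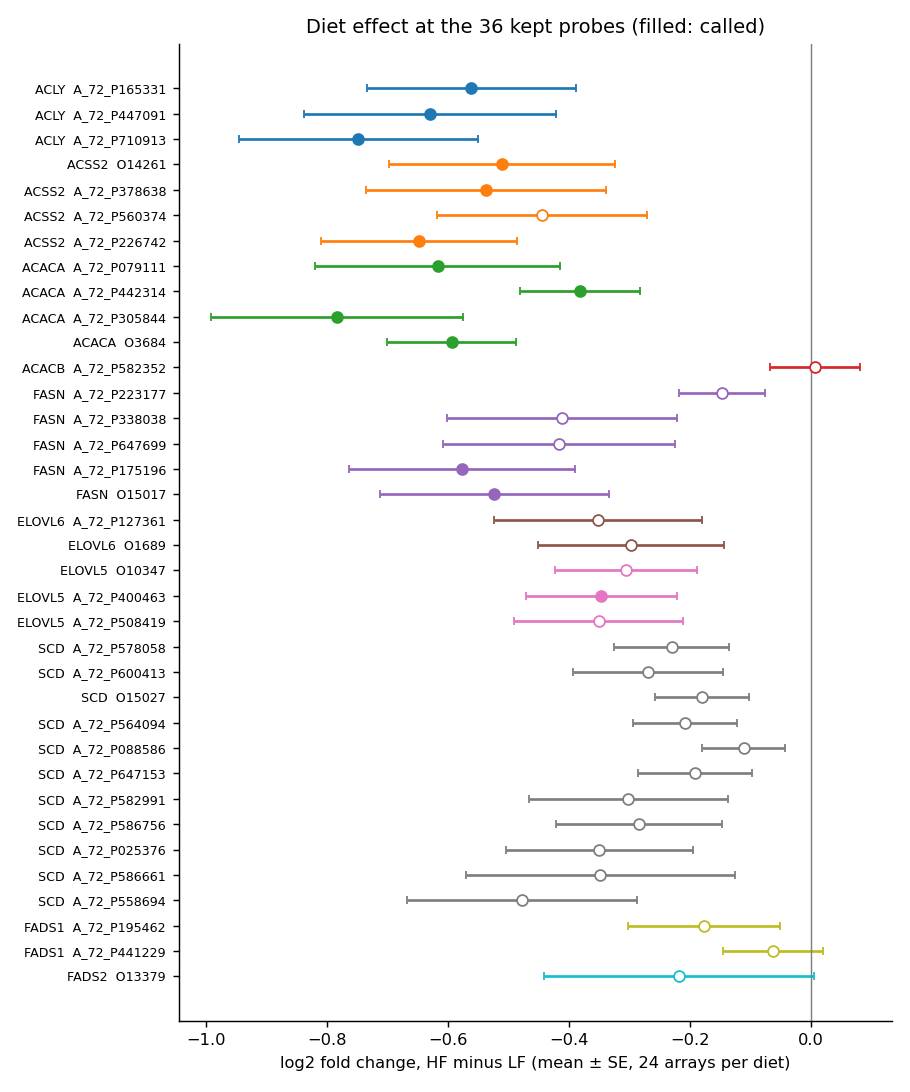
Change between diets at the 36 kept probes, in log2 (HF minus LF, mean ± SE, 24 arrays per diet). Probes are grouped by gene from the acetyl-CoA supply at the top to the desaturases at the bottom and ordered by brightness within a gene, and filled points were called. All but the ACACB probe lie below 0, and the 13 called probes belong to ACLY, ACSS2, ACACA, FASN and ELOVL5.

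Both enzymes that supply cytosolic acetyl-CoA were lower under the HF diet. At the lead probe of ACLY, A_72_P165331, levels ran from 6.75 to 9.09 with a median of 8.13 in HF pigs and from 7.67 to 9.42 with a median of 8.64 in LF pigs. Thus 6 HF arrays lay below the lowest LF array, and 19 of 24 LF arrays lay above the HF mean. The change was -0.56 (SE 0.17, a 1.48-fold decrease, limma adjusted p = 0.0269). The other ACLY probes were called as well. The change at A_72_P447091 was -0.63 (adjusted p = 0.0407) and at A_72_P710913 -0.75 (SE 0.20, adjusted p = 0.00944). The 3 ACLY probes varied together, with correlations from 0.92 to 0.98 over the 48 arrays.

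ACSS2 makes acetyl-CoA from acetate, a product of fiber fermentation. At its lead probe O14261, HF pigs ran from 5.13 to 7.11 with a median of 6.27, and LF pigs from 4.50 to 7.68 with a median of 6.92. No HF array lay below the lowest LF array, whereas 7 LF arrays lay above the highest HF array. The change was -0.51 (SE 0.19, limma adjusted p = 0.066), close to the cut-off. It was -0.54 at A_72_P378638 (adjusted p = 0.0701) and -0.65 at A_72_P226742 (SE 0.16, adjusted p = 0.0062). A_72_P378638 was called under 8 of 16 alternatives, and the methods' analysis of variance called 1 of the 4 ACSS2 probes. The fourth probe, A_72_P560374, was not called, with a value of -0.44 (adjusted p = 0.0892).

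ACACA, the cytosolic acetyl-CoA carboxylase that commits carbon to fatty acid synthesis, was called at all 4 of its probes. At O3684 the HF arrays ran from 0.42 to 1.85 with a median of 1.002 and the LF arrays from 0.82 to 2.27 with a median of 1.58. With 23 of 24 LF arrays above the HF mean and 9 HF arrays below the lowest LF array, the diets stood furthest apart relative to the spread at this probe. Its change was -0.59 (SE 0.11, a 1.51-fold decrease, limma adjusted p = 0.000236). The change was -0.62 (SE 0.20, adjusted p = 0.0392) at the lead probe A_72_P079111. At A_72_P305844 it was -0.78 (SE 0.21, adjusted p = 0.0101), the most negative of the 36 probes, and 13 of 24 LF arrays lay above the highest HF array. At A_72_P442314 it was -0.38 (SE 0.10, adjusted p = 0.00851). The ACACA probes varied together less closely, with correlations between 0.34 for A_72_P079111 and A_72_P442314 and 0.94 for A_72_P079111 and A_72_P305844.

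ACACB, whose malonyl-CoA restrains fatty acid entry into mitochondria, was not called at the 1 probe kept. Its levels ran from -2.32 to -1.47 in HF pigs and from -2.66 to -1.60 in LF pigs. The difference was 0.01 (SE 0.07, 95% confidence interval -0.14 to 0.15, limma adjusted p = 0.97). A decrease of the size seen for ACACA lay outside this interval, at a probe in the lower part of the brightness range (percentile 26).

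**Figure D2:**
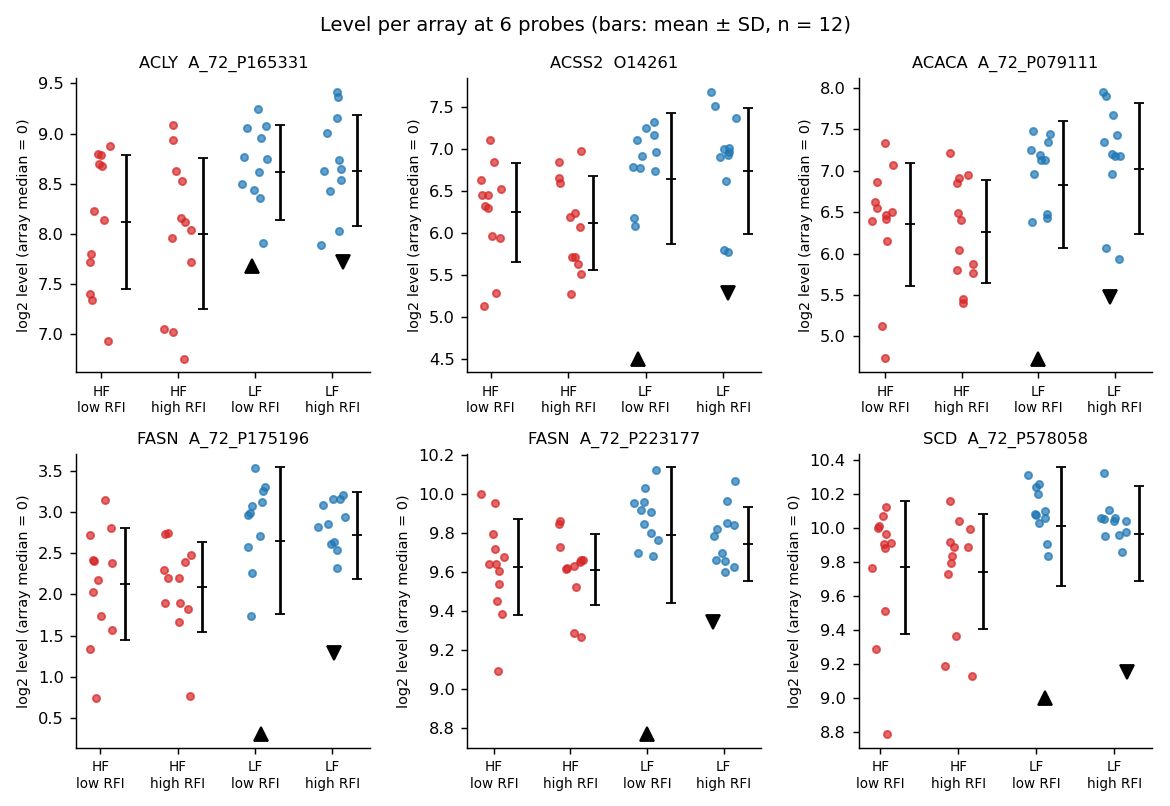
Log2 level per array at 6 probes, with 12 arrays in each of the 4 groups and bars for the mean ± SD. Red points are HF and blue points LF arrays, the upward black triangle is LF low RFI replicate 7 and the downward one LF high RFI replicate 11, which lie at or near the bottom of the LF arrays in each panel.

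FASN showed a diet call at 1 of the 3 places its probes read. At A_72_P175196, HF pigs ran from 0.75 to 3.15 with a median of 2.20 and LF pigs from 0.30 to 3.53 with a median of 2.89. The LF group held the lowest array, yet 21 of 24 LF arrays lay above the HF mean. The change was -0.58 (SE 0.19, a 1.49-fold decrease, limma adjusted p = 0.0367). The reverse complement probe O15017 gave -0.52 (adjusted p = 0.0636), so that these calls are a repeat at 1 place and not separate evidence. The duplicated sequence of A_72_P338038 and A_72_P647699 was not called, with -0.41 (adjusted p = 0.159) and -0.42 (adjusted p = 0.156).

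The lead FASN probe, A_72_P223177, was among the brightest on the array (percentile 99.8). There the HF arrays ran from 9.09 to 9.998 and the LF arrays from 8.77 to 10.12, with medians of 9.64 and 9.81. The value was -0.15 (SE 0.07, 95% confidence interval -0.29 to -0.01, adjusted p = 0.175). Its SD within groups was 0.25, against 0.675 to 0.691 at the other FASN probes. Relative to that SD, the FASN changes ran from -0.59 to -0.86.

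Of the elongases, ELOVL5 was called at 1 of 3 probes, A_72_P400463, where HF arrays ran from 3.88 to 5.07 with a median of 4.43 and LF arrays from 3.39 to 5.59 with a median of 4.84. The change was -0.35 (SE 0.13, limma adjusted p = 0.0626), and 8 LF arrays lay above the highest HF array. It was called under 9 of 16 alternatives, and the methods' analysis of variance called 0 ELOVL5 probes. The lead probe O10347 missed the call with -0.31 (SE 0.12, adjusted p = 0.0828), as did A_72_P508419 with -0.35 (adjusted p = 0.0932). ELOVL6 was called at neither probe by limma or by the methods' analysis of variance (1 and 0 at an unadjusted p under 0.05), with -0.35 (adjusted p = 0.187) and -0.30 (adjusted p = 0.214).

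SCD, the stearoyl-CoA desaturase that makes oleate, was read by 11 probes and called at 0 of them by limma and by the methods' analysis of variance, although all 11 values lay below 0 and 8 and 6 probes had an unadjusted p under 0.05. They ran from -0.48 at A_72_P558694 (adjusted p = 0.0943) to -0.11 at A_72_P088586 (adjusted p = 0.314). At the lead probe A_72_P578058, HF pigs ran from 8.79 to 10.16 with a median of 9.89 and LF pigs from 9.002 to 10.32 with a median of 10.06. The difference there was -0.23 (SE 0.09, 95% confidence interval -0.42 to -0.04, adjusted p = 0.108). At A_72_P558694 the medians were 4.83 and 5.43.

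FADS1 and FADS2, the delta-5 and delta-6 desaturases of polyunsaturated fatty acids, were read by dim probes and not called by either tool, with 0 probes at an unadjusted p under 0.05. The FADS1 values were -0.18 (SE 0.13, adjusted p = 0.397) at A_72_P195462 and -0.06 (adjusted p = 0.677) at A_72_P441229. FADS2 O13379 was well above background on 38 of 48 arrays and gave -0.22 (SE 0.22, 95% confidence interval -0.65 to 0.22), an interval that holds the change seen at the lead ACLY probe. Its LF high RFI group spanned -4.44 to -0.04, the widest spread of the FADS2 groups.

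Within FASN and within SCD, brighter probes showed smaller differences between diets. Across the 5 FASN probes the mean level and the change correlated with r = 0.84 (Spearman 0.90), and across the 11 SCD probes with r = 0.87 (Spearman 0.72). These are descriptions, since probes of a gene share the arrays and some share sequence. The brightness of a probe depends on its sequence as well as on its transcript and is no comparison of amounts between genes. The spread between pigs narrowed at the same probes: the SCD changes divided by the SD within groups kept to -0.43 to -0.70. The part of signal compression at bright probes in these smaller differences was not tested. With the mean of all kept probes of a gene, 4 members were called, ACLY (-0.65), ACACA (-0.59), ACSS2 (-0.54) and also ELOVL5 (-0.34, adjusted p = 0.0634). FASN was not called with -0.42 (adjusted p = 0.077), because its raw p was over 0.01.

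**Figure D3:**
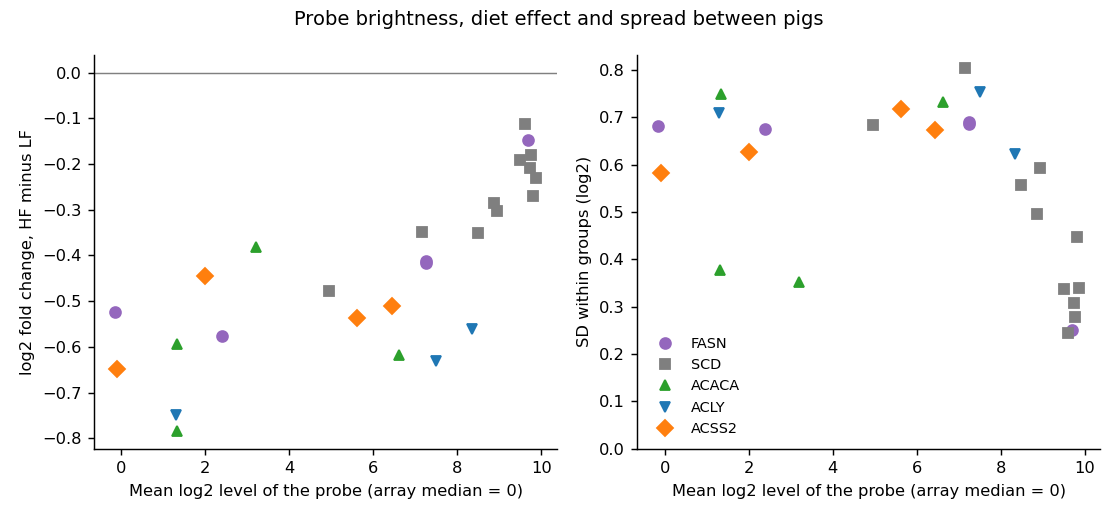
Left, change between diets (log2, HF minus LF) against the mean log2 level for each probe of FASN, SCD, ACACA, ACLY and ACSS2. Right, SD within groups (log2) against the same level. The brightest FASN probe and the bright SCD probes lie near the upper right on the left and near the bottom right on the right, with an SD of 0.25 at the brightest FASN probe.

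The number of diet calls moved with single LF pigs. Each of the 48 arrays was left out in turn, and the number of called member probes ran from 9 to 27. It rose to 27 without LF low RFI replicate 7, with all 5 FASN probes and 8 of 11 SCD probes called, and to 22 without LF high RFI replicate 11, with 6 SCD probes called. The 13 probes called with all arrays were also called in both cases. Over all kept probes the called share was 14.5% and 13.3% without these arrays. The former array was the lowest of the 24 LF arrays at 25 of the 36 member probes, and the latter was among the lowest 2 at 26.

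Over related genes and cell type markers the arrays stood as follows. Their mean log2 level over the NADPH and acetyl-CoA supply list was 3.89 and 4.20, the lowest 2 of the 24 LF arrays, whose median was 5.02. Over the other elongases, desaturases and partners it was 2.62, the lowest, and 2.78 against a median of 2.88, and over the acyl-CoA synthetases and mitochondrial genes 2.78 and 2.80 against 3.02, ranks 3 and 4 from the lowest. Over the 10 adipocyte markers it was 6.78 and 6.91 against an LF median of 7.20 and a range from 6.73 to 7.47. Over the 8 skeletal muscle markers it was -0.56 and 0.41 against a median of -1.24, which placed the arrays among the highest 3 of 24. Over the 8 macrophage markers LF low RFI replicate 7 stood at 2.05 against a median of 1.11, the second highest, and LF high RFI replicate 11 at 1.25. Over the regulators of lipogenesis the former was the lowest with 2.58 and the latter lay above the median of 2.80 with 2.86. Over the 3 blood markers the latter was the lowest with -0.48 against a median of 0.61 and the former stood at 0.48. The endothelial markers gave 4.34 and 4.27 against 4.26, and the fibroblast markers 6.17 and 5.90 against 6.04. The share of probes well above background on these arrays was ordinary, at 75.4% and 76.4%. Their lowest r with their own group was 0.967 and 0.974, where the lowest r between any 2 arrays was 0.962. The part of these features in the diet result was not tested.

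The diet result also varied with the technical layout. On the first scan date 19 of 36 member probes (52.8%) were called, against 5.43% of all kept probes, and on the second 1 (2.78%), against 2.77%. Each date had 24 arrays, and the median change was -0.51 and -0.20. The difference between scan dates was itself tested and had a p under 0.05 at 0 of 36 probes by limma (smallest p 0.06), and 0 of all kept probes passed an adjusted p of 0.08. The change was more negative on the first date at 33 of 36 member probes, with a median difference of -0.25 against -0.002 over all kept probes. With array position as a block, the median change was -0.31 and 5 member probes (13.9%) were called, against 9.66% of all kept probes. They were 3 of ACACA, 1 of ACLY and 1 of ACSS2, with no FASN, ELOVL5 or lead probe among them. The methods' analysis of variance called 9, against 12.7% of all kept probes, namely 4 of ACACA, 3 of ACLY, 1 of ACSS2 and 1 of FASN. Without the 5 arrays with under 70% of probes well above background (4 HF, 1 LF), a setting chosen after seeing the data, 9 were called, against 12.2%.

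The line comparison asked whether selection for feed efficiency had changed the same enzymes. At no member probe was low RFI called different from high RFI, against 1.37% of all kept probes and 1.32% of symbols at lead probes. By limma 0 of 36 probes were called and 4 had an unadjusted p under 0.05, and the methods' analysis of variance gave 0 and 3. Differences, low RFI minus high RFI, ran from -0.40 to 0.34. The highest was at ELOVL5 A_72_P400463 (0.34, SE 0.13, adjusted p = 0.221), where 19 of 24 low RFI arrays lay above the high RFI mean. FADS1 A_72_P195462 followed with 0.32 (SE 0.13, adjusted p = 0.286). The ELOVL6 probes disagreed, with -0.40 (SE 0.17, adjusted p = 0.352) at A_72_P127361 and 0.06 (SE 0.15) at O1689. For ACLY and FASN at the lead probes, the confidence intervals of the line difference were -0.29 to 0.39 and -0.11 to 0.17.

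The diet change was then read within each line, and the lines were compared. Within low RFI pigs, 0 member probes were called by limma, against 3.04% of all kept probes, with 6 of 36 at an unadjusted p under 0.05, against 15.1% of all kept probes. The analysis of variance gave 0 and 5, and array weights called 10, against 9.41%. Within high RFI pigs 1 was called, ACACA O3684, against 1.66%, with 16 at an unadjusted p under 0.05, against 13.9%. There 8 were called with array weights (5.25% of all kept probes), 7 on the first scan date (0.543%), 0 on the second (0%) and 5 with the replicate block (4.3%). The change at that probe was -0.71 (SE 0.15, adjusted p = 0.016) in high RFI pigs and -0.48 (SE 0.15, adjusted p = 0.0805) in low RFI pigs.

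Values were below 0 at 35 of 36 probes in each line, with a median of -0.30 in the efficient line (low RFI) and of -0.41 in the other. At 28 of 36 probes the value was lower in high RFI pigs than in low RFI pigs, as it was at 24503 of all 44356 kept probes. The difference between the lines was not called at any probe: for the interaction, limma called 0 of 36 and 0% of all kept probes, and 0 of 36 had an unadjusted p under 0.05 by limma or by the analysis of variance. The smallest p was 0.0751, at FADS2 O13379, where low RFI pigs gave 0.19 (SE 0.31) and high RFI pigs -0.62 (SE 0.31). Between lines within a diet, 0 member probes were called under HF, against 0.0113% of all kept probes, and 0 under LF, against 0.0338%. At an unadjusted p under 0.05 there were 1 and 0 by limma and 1 and 0 by the analysis of variance.

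**Figure D4:**
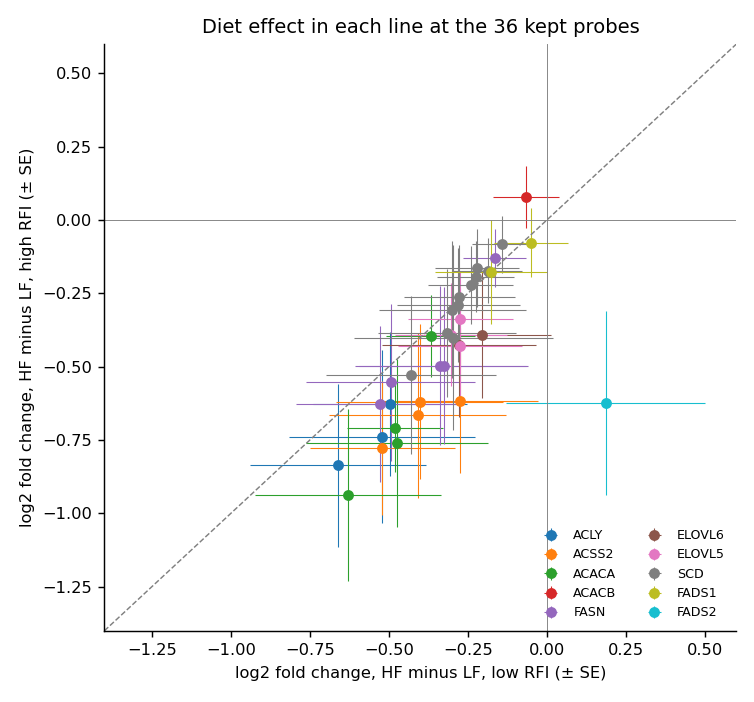
Change between diets (log2, HF minus LF, ± SE) in high RFI pigs against that in low RFI pigs for the 36 kept probes, coloured by gene. Points below the dashed line of equal change are lower in high RFI pigs (28 of 36, beside 24503 of all 44356 kept probes). The difference between the lines was not called at any of the 36.

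Among pigs of the same group, the synthesis enzymes varied together. Correlations of lead probes were taken over the 48 arrays after the mean of each group was subtracted, with permutation within groups (100000 resamples, two-sided) and adjustment over 65 pairs. Of the 45 pairs of members, 22 had an adjusted p under 0.05, all positive, and 17 by Spearman's rho. Their lowest r was 0.32, a value that 48.9% of member pairs and 14.1% of all pairs of symbols reached, given as a description with no test. ACACA and ACSS2 correlated most closely, with r = 0.94 and rho = 0.90 (permutation p = 1e-05, the smallest these permutations can give, adjusted p = 6.5e-05). Without the 2 arrays farthest from the ACACA median r was 0.92, and within the scan dates it was 0.92 and 0.95.

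FASN and SCD followed a like course, with r = 0.81 and rho = 0.66 (permutation p = 1e-05, adjusted p = 6.5e-05), r = 0.68 without the 2 farthest arrays, and 0.91 and 0.85 within the scan dates. At their lead probes FASN and ELOVL5 gave r = 0.20 and rho = -0.0004 (permutation p = 0.154, adjusted p = 0.3), r = -0.05 without the 2 farthest arrays and -0.07 and 0.49 within the scan dates. With the FASN probe A_72_P647699 in place of the lead, the ELOVL5 lead probe gave r = 0.70, so that this pair depended on the FASN probe. Grouped after the values were seen, the 21 pairs among ACLY, ACSS2, ACACA, FASN, SCD, ELOVL6 and ELOVL5 had a median r of 0.67, and 20 had an adjusted p under 0.05. The 24 pairs with ACACB, FADS1 or FADS2 ran from -0.22 to 0.41, with 2 under that threshold. On the first scan date alone 9 pairs passed, and on the second 20.

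**Figure D5:**
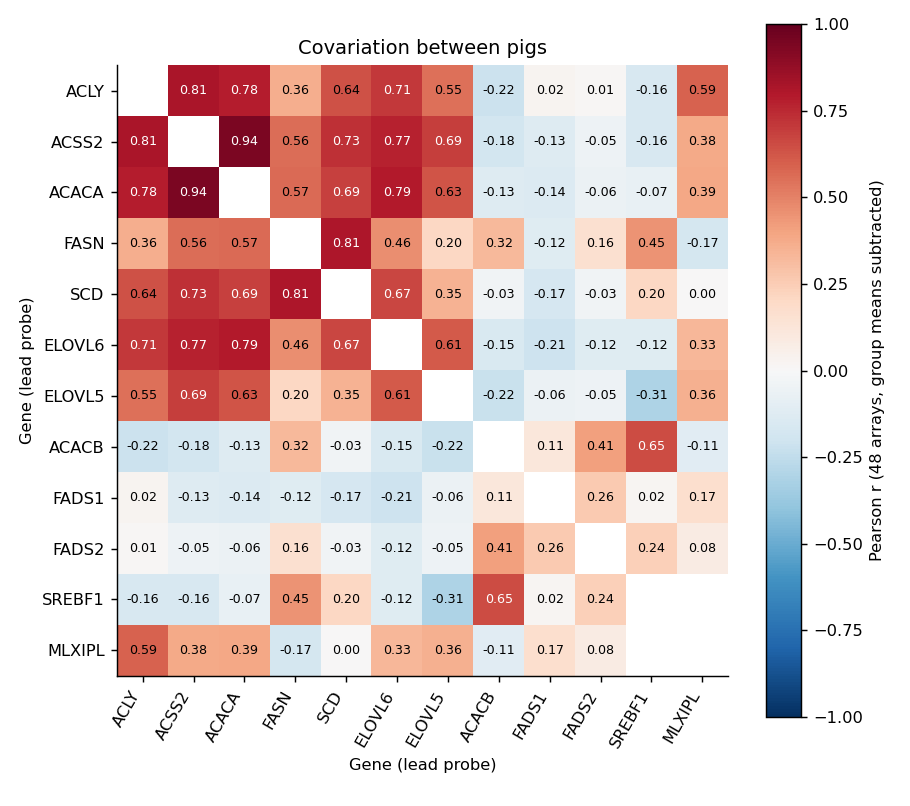
Pearson r between lead probes over 48 arrays with group means subtracted, for the 10 members and 2 regulators (blank where no pair was tested). ACLY, ACSS2, ACACA, FASN, SCD, ELOVL6 and ELOVL5 form a block of positive values up to 0.94, and ACACB, FADS1 and FADS2 lie outside it.

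Of the 20 pairs of a member with SREBF1 or MLXIPL, the transcription factors that answer to insulin and sterols and to glucose, 5 had an adjusted p under 0.05. MLXIPL went with ACLY (r = 0.59, rho = 0.54, permutation p = 3e-05, adjusted p = 0.000122, r = 0.58 without 2 arrays, 0.60 and 0.57 within scan dates), and with ACACA (r = 0.39, rho = 0.46, permutation p = 0.00878, adjusted p = 0.0238) and ACSS2 (r = 0.38, rho = 0.42, permutation p = 0.0119, adjusted p = 0.031). Within the scan dates these were 0.36 and 0.34 for ACACA and 0.32 and 0.32 for ACSS2, without 2 arrays 0.50 and 0.48, and after slide means were subtracted too 0.40 and 0.38. SREBF1 went with FASN (r = 0.45, rho = 0.57, permutation p = 0.00097, adjusted p = 0.003, r = 0.47 without 2 arrays, 0.41 and 0.62 within scan dates). It also correlated with ACACB (r = 0.65, rho = 0.64, permutation p = 1e-05, adjusted p = 6.5e-05), but with r = 0.22 and 0.37 within the scan dates and 0.03 after slide means were subtracted too, so that it was not seen within slides.

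The other genes of the pathway were read at their lead probes. Of 13 measured regulators of lipogenesis 4 were called lower by diet and none higher, against 9.45% and 3.23% of all symbols, with a median of -0.11 against -0.04 over all symbols. They were MLXIPL (-0.40, adjusted p = 0.0701), INSIG2, which retains SREBP in the endoplasmic reticulum (-0.23, adjusted p = 0.00889), the FASN promoter factor USF1 (-0.22, adjusted p = 0.0633) and MID1IP1, a protein that promotes ACACA polymerisation (-0.53, adjusted p = 0.037). These calls were lost under 11 of 16 alternatives for MLXIPL, 2 of 16 for INSIG2, 8 of 16 for USF1 and 4 of 14 for MID1IP1, whose probe was dim and gave -0.25 without background subtraction. SREBF1 gave -0.16 (adjusted p = 0.313) at its lead probe and was called lower at 1 of its other 2 probes (-0.27, adjusted p = 0.058). Between lines 1 regulator was called, MLX, the dimer partner of MLXIPL, lower in low RFI pigs (-0.41, SE 0.11, adjusted p = 0.0418).

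The counts of the other lists stand against 9.45% of all symbols called lower and 3.23% called higher. Of 11 genes of cytosolic NADPH and acetyl-CoA supply, 1 was called, malic enzyme ME1, with a decrease of -0.71 (SE 0.19, adjusted p = 0.012), and the list's median was -0.15. PGD of the pentose phosphate pathway gave -0.18 (adjusted p = 0.235), and the citrate carrier SLC25A1 gave -0.31 (adjusted p = 0.235). Of 10 other elongases, desaturases and partners, 1 was called lower, DEGS1 of ceramide synthesis (-0.19, adjusted p = 0.0466), with a list median of -0.10. By line, cytochrome b5 CYB5A, an electron donor to desaturases, was higher in low RFI pigs (0.23, adjusted p = 0.0755), a call that the analysis of variance did not give. Of 11 acyl-CoA synthetases and mitochondrial fatty acid synthesis genes, 0 were called by diet by either tool and 2 had an unadjusted p under 0.05, with a median of -0.07. At a probe other than the lead, MLX, PC, ELOVL2 and ACSL3 were called lower under HF.

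Markers of cell types were compared beside these values, at lead probes unless said. Of 10 adipocyte markers 2 were called lower under HF, against 9.45% of all symbols, LEP (-0.67, adjusted p = 0.00494) and CEBPA (-0.14, adjusted p = 0.0581), and the list's median was -0.06. The other probes of both were also called lower, 2 of LEP (-0.73 and -0.69) and 3 of CEBPA (-0.31 to -0.27). ADIPOQ was not called at its lead probe (0.11) but called higher at 2 of its 8 other probes (0.24 and 0.19, adjusted p = 0.0113 and 0.0287). The summed level of the list, in units of the median probe, ran from 2570 to 3530 in the HF groups and from 2570 to 3610 in the LF groups. Of 6 fibroblast markers 2 were called higher, against 3.23% of all symbols, COL1A2 (0.36, adjusted p = 0.0636) and PDGFRA (0.31, adjusted p = 0.0661), with all 6 above 0, although the analysis of variance called 0 of them and gave 3 at an unadjusted p under 0.05. The other 3 probes of COL1A2 were also called higher (0.37 to 0.44), and COL3A1 was called higher at a probe other than its lead. The summed level ran from 1280 to 2330 under HF and from 908 to 2840 under LF. None of 8 macrophage, 6 endothelial, 8 skeletal muscle and 3 blood markers was called by either tool, and 1 muscle marker had an unadjusted p under 0.05. All 8 muscle markers lay below 0, with a median of -0.21, and all 3 blood markers, with a median of -0.12. Among their other probes, 1 of CKM (-0.52, adjusted p = 0.0188) and 1 of MYH7 (-0.65, adjusted p = 0.0351) were called lower. The part of cell composition in the diet result was not tested.

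The genes most like the lead FASN probe among 10391 other symbols were CDH23 (r = 0.84), VPS28 (0.83), TICAM1 (0.82), NDUFA3 (0.82) and TTYH3 (0.81), over 48 arrays with group means subtracted. SCD came next with 0.81, whereas ACACA ranked 419, ACSS2 476, ELOVL6 1160, ACLY 2101 and ELOVL5 3718. Against the FASN probe A_72_P647699 the same 5 genes had r values of 0.38, 0.81, 0.75, 0.62 and 0.60. The members' r with that probe was 0.86 for ACSS2, 0.81 for ACACA, 0.76 for SCD, 0.73 for ACLY, 0.72 for ELOVL6 and 0.70 for ELOVL5, so that the low ranks of the synthesis enzymes hold for the lead FASN probe. ACACB, FADS2 and FADS1 gave -0.30, -0.08 and -0.18.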

How the data were processed

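RNA of each pig was labelled with 1 dye (Cy3) and hybridised by the authors on custom pig arrays of 60-base probes. The deposited scanner files, made with Agilent Feature Extraction 10.7.3.1, hold spot intensity on a linear scale, and the background-subtracted processed signal was used. A second deposited file gives log2 values of 38987 probes, made by the authors without background subtraction and centred on array medians, which served as an alternative. The submitters' processing notes name R 2.10.0.

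Control spots (1319) and 227 flagged spots were left out, none of the latter on a member probe. Values were log2 of the processed signal (pseudocount 0) minus the array median over the 44356 kept probes. Array titles gave the groups. A model with diet, line and the diet by line term was fitted over the 48 arrays with limma 3.58.1 (lmFit, eBayes with trend) in R 4.3.3. The methods' two-way analysis of variance on the same values was an alternative, beside other scalings, background corrections, filters, array weights and blocks. Correlations used scipy 1.17.1, and figures matplotlib 3.10.9. On simulated data with 100 probes changed at each size, 77% were called at a log2 change of 0.5 and 99% at 1 for the diet comparison, on 44202 probes. The changed probes were drawn at random from these. The median SD within groups was 0.29 over all kept probes and 0.57 at the member probes. The simulated shares thus do not give the share of such changes that would be called at the members.

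All members are named, and all their kept probes enter the counts. The kept ACACB probe and some of the SCD probes are not named, and these SCD probes are given without values of their own. Of the pathway lists, called genes and SREBF1, MLXIPL, ME1, PGD and SLC25A1 are named, and THRSP was not analysed here. Some items that meet these rules are not reported here. The 5 genes most like the FASN lead probe are given. Cell type markers are named where called or defining, a choice made with the values known. The members and lists were chosen with earlier results of these data known. Probes were named from accessions, gene numbers or gene names in the files through the RefSeq table. No genome was used, so no coordinates are given. The number of arrays limits the precision.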

Additional observations from a re-analysis of the deposited data

How the results depend on the processing

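No called member probe was higher under HF with any setting tried. Of 156 values of the 10 lead probes under the alternatives, 143 lay below 0, and no change of sign involved a call. Values without a call did change sign: ACACB lay below 0 under 4 of 16 alternatives, and FADS2 reached 0.08 on the second scan date. The 3 called lead probes stayed called in 39 of 48 values, and the other 7 stayed uncalled in 100 of 108. Other settings moved the number of member probes called by diet from 13 (13.1% of all kept probes called) to 25 with array weights (17.7%), 5 with array position as a block (9.66%) and 1 on the second scan date (2.77%), and that of lead probes from 3 to 6, 0 and 0, and to 5 on the first scan date. Leaving out 1 array at a time, an alternative chosen after seeing the data, gave 9 to 27 probes and 2 to 6 lead probes. Within low RFI pigs 0 (3.04%) became 10 with array weights (9.41%) and 1, near or below the share of all probes, without background outliers (2.97%) or with slide (5.35%) or scan date (4.19%) as a block. Within high RFI pigs 1 (1.66%) became 8 with array weights (5.25%), 7 on the first scan date (0.543%), 0 on the second (0%), and 2 with normexp (1.42%), the strictest filter (2.33%), the slide (3.75%) or scan date (2.78%) block and the authors' table (2.11%). Array weights called 1 probe for line (4.1%), and the first scan date 9 correlated pairs. The causes were not tested.

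The labels do not say that a replicate number pairs pigs, but each slide held 2 numbers of every group. Same-numbered arrays correlated with r from -0.193 to 0.449 (median 0.158, against -0.0216 for different numbers), and 17 of 48 arrays correlated best with one of their own number. Arrays of the same number always shared a slide and a scan date, so that pairing and layout cannot be told apart by these values. The numbers were not taken as pairs. With the replicate block 14 member probes were called by diet (16.1% of all probes), 1 within low RFI (6.43%) and 5 within high RFI pigs (4.3%).

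Scaling each array to its 75th percentile gave 9 called member probes, and over all kept probes changed 2489 higher and 3301 lower calls to 3853 and 1884, and quantile normalisation to 2788 and 2733. The member medians stayed at -0.31 and -0.32. Dim FADS1 and FADS2 probes limit what can be said of these genes.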
